A study of Mus musculus with 2 samples.

Results

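The NKG2 family of lectin-like receptors, the related receptors KLRE1 and KLRG1, and the adaptor proteins through which activating receptors of this kind signal were measured in T cells that carry CD8 and that either carry CD122 (CD8+CD122+) or lack it (CD8+CD122-). The 10 genes, of 27775 gene names on the array, were Klrc1, Klrc2, Klrc3, Klrd1, Klrk1, Klre1, Klrg1, Hcst, Tyrobp and Fcer1g. They were represented by 17 of the 41174 different probes on the array, namely every probe that is no control and carries one of these symbols in either of the scanner files. Both populations were sorted from spleens of C57BL/6 mice, with no genotype or treatment named, and their age, sex and number are not given in the sources used here. Amplified messenger RNA of both populations was put on each of 2 Agilent arrays that read a pair of dyes. On array 1 the CD8+CD122+ RNA was the Cy5 channel and the CD8+CD122- RNA the Cy3 channel, and on array 2, labelled as a later trial, the dyes were exchanged. The comparison has n = 2 arrays, this number limits its precision, and nothing says that the arrays came from separate mice, so its p-values measure only the spread between these arrays. In bulk RNA of sorted cells, fewer cells that carry a transcript and less of it per cell cannot be told apart.

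CD94, the product of Klrd1, pairs with NKG2A (Klrc1) into an inhibitory receptor and with NKG2C (Klrc2) or NKG2E (Klrc3) into activating receptors, and these pairs recognise the nonclassical MHC class I molecule Qa-1. NKG2D (Klrk1) recognises stress-induced ligands of the RAE-1, H60 and MULT1 kinds and signals through the adaptors DAP10 (Hcst) and DAP12 (Tyrobp). DAP12 and the Fc receptor gamma chain (Fcer1g) carry activation motifs in their tails, and KLRG1 is an inhibitory receptor for cadherins. These receptors were described in natural killer (NK) cells, and NKG2A, NKG2D and KLRG1 are also known on memory and effector CD8 T cells.

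Klre1, Klrd1, Klrk1, Klrc3, Klrc2 and Klrc1 are 6 consecutive protein-coding genes on chromosome 6 by RefSeq on GRCm38.p6, and Hcst and Tyrobp are neighbours on chromosome 7. The promoter windows of 4 of the cluster's genes are shown, because probes of each had log2 ratios above 0 on both arrays (below) and because the Klrc genes differ here. Each is the 250 bases before an annotated start site, from RefSeq on GRCm38.p6, written 5′ to 3′ in the direction of the gene. Capitals mark TGTGGT, the core letters bound by Runx factors, read on either strand, where its complement reads ACCACA. The window of Klrc1 lies at chr6:129678974-129679223, minus strand, that of Klrc3 at chr6:129643289-129643538, minus strand, that of Klrk1 at chr6:129623865-129624114, minus strand, and that of Klre1, upstream of the first of its annotated starts, at chr6:129577963-129578212, plus strand.
Klrc1: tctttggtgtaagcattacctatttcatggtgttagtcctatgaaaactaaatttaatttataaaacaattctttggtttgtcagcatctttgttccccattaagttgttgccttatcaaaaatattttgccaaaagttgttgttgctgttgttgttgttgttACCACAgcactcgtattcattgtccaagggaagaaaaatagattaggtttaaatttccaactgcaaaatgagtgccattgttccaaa
Klrc3: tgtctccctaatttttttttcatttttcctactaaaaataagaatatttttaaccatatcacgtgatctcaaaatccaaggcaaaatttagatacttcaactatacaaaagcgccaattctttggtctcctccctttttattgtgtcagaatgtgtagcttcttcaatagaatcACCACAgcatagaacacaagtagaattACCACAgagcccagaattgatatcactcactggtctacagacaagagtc
Klrk1: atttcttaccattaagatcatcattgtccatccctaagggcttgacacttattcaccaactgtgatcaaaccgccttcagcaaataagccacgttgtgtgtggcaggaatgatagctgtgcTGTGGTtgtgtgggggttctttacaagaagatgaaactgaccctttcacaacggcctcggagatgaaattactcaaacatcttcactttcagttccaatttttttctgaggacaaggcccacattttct
Klre1: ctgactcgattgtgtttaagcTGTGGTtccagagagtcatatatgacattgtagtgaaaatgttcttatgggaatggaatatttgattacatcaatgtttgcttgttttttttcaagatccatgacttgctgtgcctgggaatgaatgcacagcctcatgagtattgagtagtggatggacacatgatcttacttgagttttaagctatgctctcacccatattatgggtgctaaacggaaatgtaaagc

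Windows were found for 7 of the 10 genes, 9 windows in all. The Klrc3 window and its best-aligned Klrc2 window shared 246 of 250 aligned bases (98.4%). The Klrc1 window shared between 54.5% and 58% of aligned bases with the Klrc2 and Klrc3 windows, over alignments of 100 to 211 columns. TGTGGT was present in 6 of the 9 windows, against 14% of all 32841 windows of this length. Counting a gene with a match in any window, it was in 5 of the 7 genes, Klrc1, Klrc2, Klrc3, Klrk1 and Klre1. The other Klre1 window, not shown, had 0 matches. This motif and those below were chosen after the values were seen, so the counts are no support by themselves. The Klrc2 windows overlap, with all 210 shared bases the same, and they match the Klrc3 window nearly throughout, so 3 of the 6 windows hold what is almost 1 sequence. The Ets core CCGGAA was in 1 of the 9 windows (Fcer1g) against 12%, the T-box core GGTGTG in 1 (Hcst) against 16.3%, and the AP-1 motif TGANTCA in 0 against 6.75%, all read on both strands. A match is a description of these letters and not of a bound site. The genes with TGTGGT included Klrc2, whose tested probe did not differ by more than the spread between arrays. That probe was named Klrc2 for array 1 only (below).

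The sort and the cell identity were checked on the same arrays. Il2rb, which encodes CD122, was brighter in CD8+CD122+ cells, with signals of 9033 against 1012 on array 1 and of 4432 against 1405 on array 2, a log2 ratio of 2.47 ± 0.18 (SD, n = 2 arrays, here and below; 5.56-fold). Cd8a and Cd8b1, the chains of CD8, were well above background in all 4 measurements, with log2 ratios of -0.61 ± 0.43 and -0.67 ± 0.27. Of the NK cell markers, Ncr1 was not well above background in any spot. Of 13 tested, 9 had log2 ratios above 0 on both arrays and 0 below 0 on both (values below). Among all tested probes 27.8% were above 0 on both arrays and 25.6% below. Over all spots that are no control, 69.5% to 83.4% were well above background per population and array. A signal is the mean pixel value of a spot in scanner units, against a local background of 57 to 71 around the 17 probes. Raw signals precede the dye normalisation and do not give the ratio by themselves. Every log2 ratio is CD8+CD122+ over CD8+CD122- after background correction with an offset of 50 and loess normalisation, which draws the ratios of dim probes towards 0.

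Of the 17 probes, 13 were tested, with at least 1 for each of the 10 genes, and 4 were too dim. A probe was tested if the same population was well above background on both arrays, and 4 of the 13 passed only through CD8+CD122+. By limma, 0 of the 13 had an adjusted p under 0.05, against 0 (0%) of all 30794 probes tested, and the versions with an intensity trend and with robust estimation also called 0. At an unadjusted p under 0.05 limma found 5 of the 13, all higher in CD8+CD122+ cells, against 2.62% of all tested probes in that direction, 3.49% in the other and 6.12% in either. Of these 5, Klrc3 A_52_P74290 and Klre1 A_52_P592222 were tested only because CD8+CD122+ was well above background, the population in which they are high, so the count and its direction are no support by themselves. By a rule of size with no p-value, at least 2-fold in one direction on both arrays, 1 probe was higher, against 0.253% of all probes tested, and 0 were lower, against 0.0812%. Of the 13 tested probes 9 had log2 ratios above 0 on both arrays, 4 had opposite signs and 0 were below 0 on both, where among all tested probes 27.8% were above 0 on both arrays and 25.6% below. With the untested probes these counts were 10, 7 and 0 of 17. Of the 9 tested probes above 0 on both arrays, Klrc3 A_52_P74290, Klre1 A_52_P592222 and that of Klrg1 passed only through CD8+CD122+. The 9 also include both tested probes of Klrc1 and of Klrc3, so this count too is no support by itself.

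**Figure D1:**
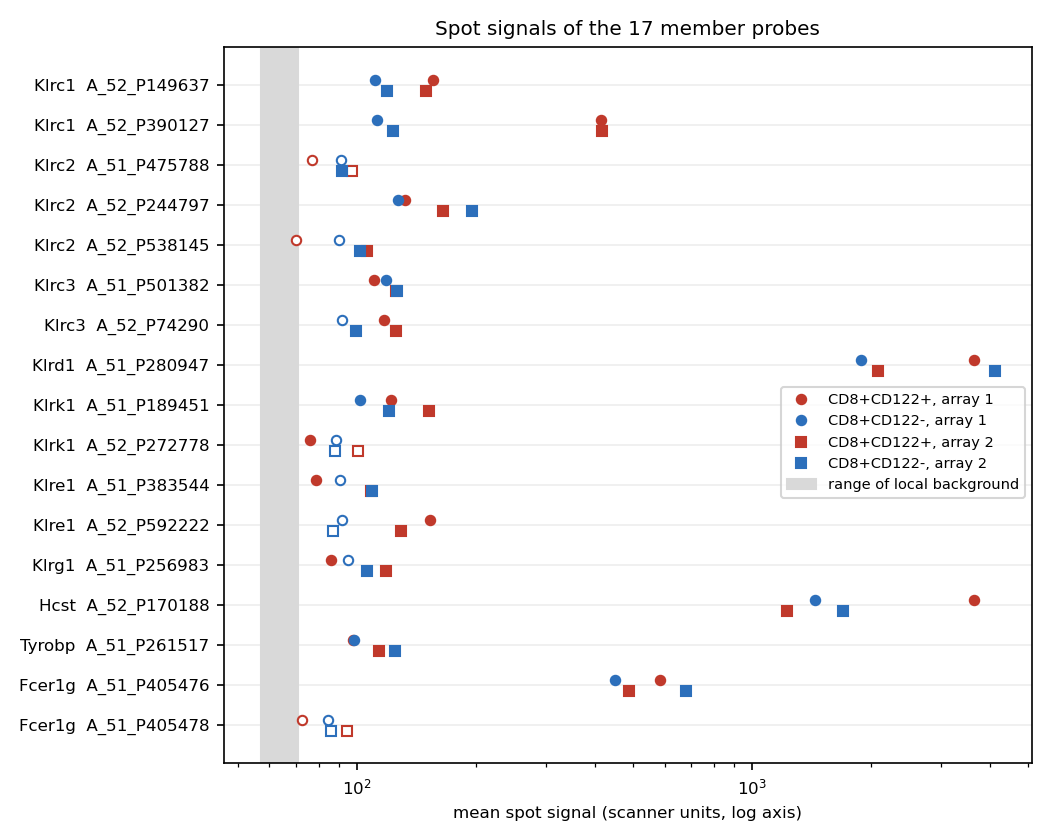
Mean spot signal in scanner units (log axis) of each of the 17 probes in both populations on both arrays. Filled symbols were well above background, open symbols were not, and the grey band is the range of local background (57 to 71). Only the probes of Klrd1, Hcst, 1 Klrc1 probe and 1 Fcer1g probe exceed a signal of 200, and Klrc1 A_52_P390127 is the probe whose populations are furthest apart.

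Klrc1, the gene of the inhibitory chain NKG2A, had the largest difference of the 10 genes. Its probe A_52_P390127 gave signals of 414 in CD8+CD122+ and 112 in CD8+CD122- cells on array 1, and of 418 and 124 on array 2. The CD8+CD122+ spots were thus more than 3 times as bright on both arrays. The log2 ratio was 1.99 on array 1 and 2.40 on array 2, with a mean of 2.20 ± 0.29, or 4.58-fold (limma's adjusted p 0.329, unadjusted 0.000565). This mean was above that of 99.9% of all probes tested. A_52_P390127 is named Klrc1 for array 2 only. Klrc3 A_52_P74290, Klrk1 A_51_P189451, Klrc2 A_52_P538145 and Hcst A_52_P170188 likewise carry their gene symbols for array 2 only. Klrc1 was also probed by A_52_P149637, with signals of 156 and 111 on array 1 and 149 and 119 on array 2. Here CD8+CD122+ was again the brighter population on both arrays, by less. Its log2 ratio was 0.60 and 0.54 on the arrays, 0.57 ± 0.04 on average, which is 1.48-fold (limma's adjusted p 0.546). The probes of Klrc1 therefore gave the same direction and sizes of 4.58-fold and 1.48-fold, and the files name different accessions for them. With the deposited processed signals, from which the background is subtracted with no offset, their log2 ratios were 3.33 and 1.21.

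Klrc2 encodes the activating chain NKG2C. Its 1 tested probe, A_52_P244797, gave signals of 132 and 127 on array 1 and of 165 and 196 on array 2 for CD8+CD122+ and CD8+CD122- cells, and its log2 ratio was 0.03 ± 0.05. The populations were close on array 1, and CD8+CD122- had the brighter raw spot on array 2. The other Klrc2 probes, A_51_P475788 and A_52_P538145, were not well above background on array 1 in either population, with signals between 70.1 and 91.3 there. Klrc3 encodes the activating chain NKG2E, and its probes differed. A_52_P74290 gave 117 and 91.6 on array 1, with 125 and 99.6 on array 2, a log2 ratio of 0.57 ± 0.17 (0.69 and 0.44 on the arrays; limma's adjusted p 0.656, unadjusted 0.00968). Its CD8+CD122- spot was not well above background on array 1. A_51_P501382 gave 110 and 118 on array 1, with 125 and 126 on array 2, a log2 ratio of 0.02 ± 0.03. The Klrc genes are close copies of each other, so how much of a probe's signal comes from each of them is uncertain.

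Klrd1, whose product CD94 is the common partner of these chains, was bright in both populations. Its probe A_51_P280947 gave 3636 in CD8+CD122+ and 1882 in CD8+CD122- cells on array 1, and 2081 and 4122 on array 2. The brighter population changed between the arrays, and on both it was the population labelled with Cy5. The log2 ratio was 0.39 on array 1 and -0.33 on array 2, so that the mean of 0.03 ± 0.51 was far smaller than the spread between arrays (limma's adjusted p 0.985). The log2 ratio of Cy5 over Cy3 was 0.39 and 0.33. The part of the dyes in these values was not tested.

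Klrk1, the gene of NKG2D, had a small difference that was nearly the same on both arrays. Probe A_51_P189451 gave signals of 122 in CD8+CD122+ and 101 in CD8+CD122- cells on array 1 and of 152 and 120 on array 2. CD8+CD122+ was the brighter population on both arrays. The log2 ratio was 0.51 and 0.56, on average 0.54 ± 0.04 or 1.45-fold (limma's adjusted p 0.554, unadjusted 0.00343), and 2.30-fold with the processed signals. The other Klrk1 probe, A_52_P272778, was not tested, since CD8+CD122- was not well above background on either array and CD8+CD122+ was so on 1 array. It gave signals of 76.2 and 88.5 on array 1 and 100 and 87.7 on array 2.

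Klre1 encodes a receptor that pairs with KLRI1 or KLRI2. Probe A_52_P592222 gave signals of 153 in CD8+CD122+ and 91.4 in CD8+CD122- cells on array 1 and of 129 and 87.0 on array 2. CD8+CD122- was not well above background on either array, so its level was limited from below. With this limit CD8+CD122+ was 1.84-fold higher as a mean over both arrays. The limit is, for the dim population on each array, the lowest level of any probe well above background or the probe's own level, whichever was higher. The 1.84-fold is no minimum, since it depends on how the background was treated. Over 10 settings with both arrays the mean log2 ratio, without this limit, ran from 0.67 to 2.93. The lowest came with no background correction. The fitted log2 ratio was 1.09 on array 1 and 0.74 on array 2 (limma's adjusted p 0.59, unadjusted 0.00485), past 2-fold on array 1 alone. The other Klre1 probe, A_51_P383544, gave 78.8 and 90.4 on array 1 and 109 in both populations on array 2, a log2 ratio of 0.01 ± 0.07.

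Klrg1, which marks CD8 T cells after repeated or strong activation, was dim on its only probe, A_51_P256983. Its signals were 85.7 in CD8+CD122+ and 95.1 in CD8+CD122- cells on array 1, where CD8+CD122- was not well above background, and 118 and 106 on array 2. The log2 ratio was 0.09 and 0.23 on the arrays, 0.16 ± 0.09 on average (limma's adjusted p 0.86, unadjusted 0.109), and with the processed signals it was 0.56 ± 0.05 or 1.48-fold. These spots lay close to the background, and the value does not show equal expression.

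**Figure D2:**
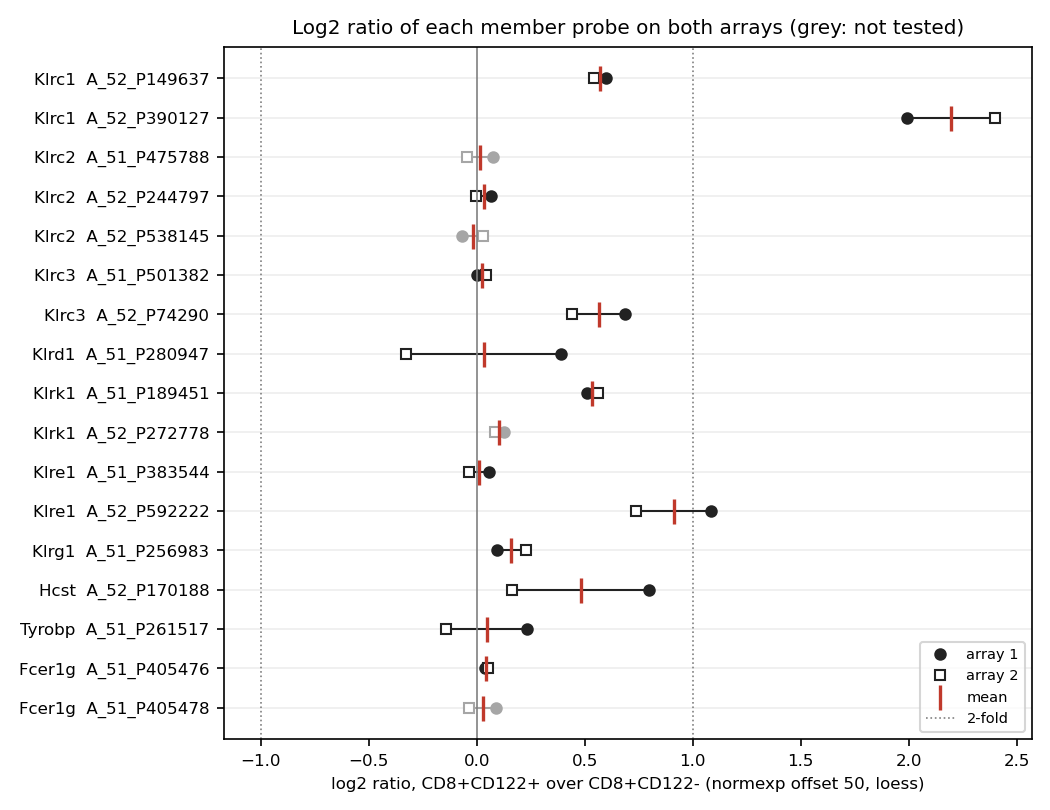
Log2 ratio of CD8+CD122+ over CD8+CD122- for each of the 17 probes on array 1 (filled circle) and array 2 (open square), with their mean (red bar), lines at 2-fold (dotted) and untested probes in grey. Klrc1 A_52_P390127 lies past 2-fold on both arrays, and Klrd1 lies on opposite sides of 0 at 0.39 and -0.33.

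Of the adaptor genes, Hcst had the largest difference and Tyrobp and Fcer1g were near 0. Hcst, the gene of DAP10, which carries the signal of NKG2D to PI3 kinase, was well above background in both populations, with signals of 3638 in CD8+CD122+ and 1444 in CD8+CD122- cells on array 1 and of 1228 and 1696 on array 2. The log2 ratio was 0.80 on array 1 and 0.16 on array 2, positive on both after dye normalisation, and the mean of 0.48 ± 0.45 was about as large as its spread (limma's adjusted p 0.851, unadjusted 0.0921). Tyrobp, the gene of DAP12, gave 97.6 and 98.3 on array 1, with 113 and 125 on array 2. Its log2 ratio was 0.23 on array 1 and -0.14 on array 2. After normalisation the Cy5 channel was the higher on both arrays, as for Klrd1 and the other tested probes of opposite signs. The raw Cy5 spot of Tyrobp was not the brighter on array 1. Fcer1g, the Fc receptor gamma chain, gave 584 and 450 on array 1, with 487 and 681 on array 2 on probe A_51_P405476. Its log2 ratio was 0.04 and 0.05 on the arrays, 0.05 ± 0.01 on average, which is 1.03-fold (limma's adjusted p 0.937). The other Fcer1g probe, A_51_P405478, was not well above background in either population on either array. No adaptor probe reached 2-fold on both arrays under any of the settings tried.

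**Figure D3:**
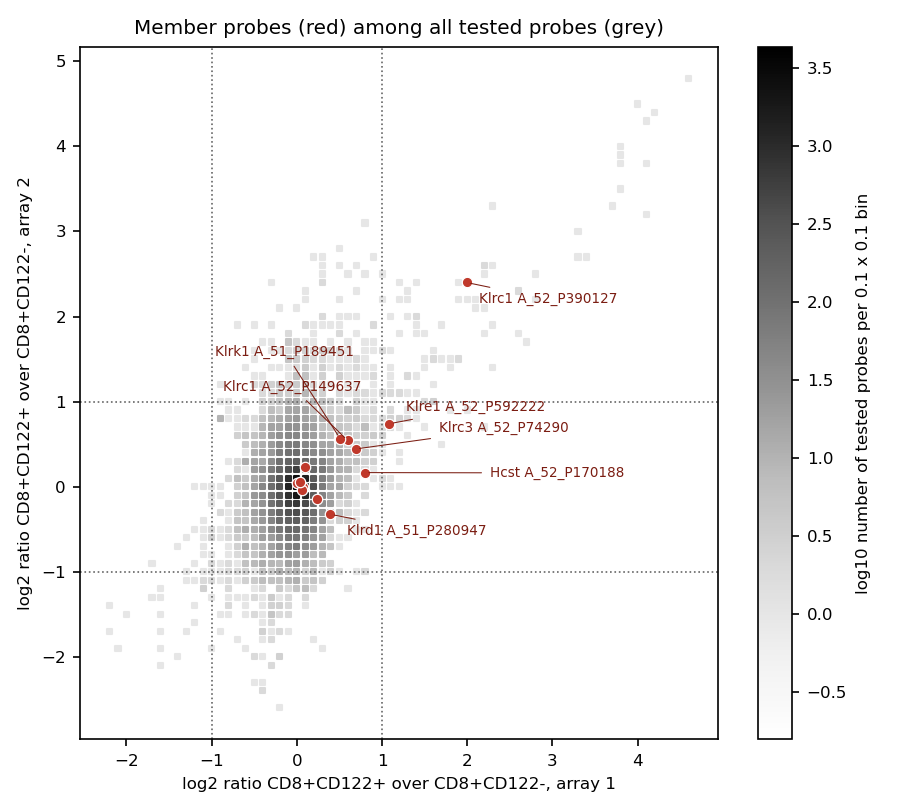
Log2 ratio of CD8+CD122+ over CD8+CD122- on array 1 (horizontal) against array 2 (vertical) for the 13 tested probes of the 10 genes (red) and all 30794 tested probes (grey, as log10 number per bin of 0.1 by 0.1), with dotted lines at 2-fold. Klrc1 A_52_P390127 is the red point past 2-fold on both arrays, at 1.99 and 2.40, and Klrd1 is the red point furthest to the lower right, at 0.39 and -0.33.

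The size of these differences depended on how the background was treated. With the deposited processed signals 5 probes passed the rule of size as higher, both probes of Klrc1, Klrk1 A_51_P189451, Klre1 A_52_P592222 and Klrc3 A_52_P74290, against 0.646% of all probes, and with a normexp offset of 0 the same 5 were, against 0.591%. Klre1 A_52_P592222 and Klrc3 A_52_P74290 were tested only through CD8+CD122+, the population in which they are high, so this count is no support by itself. The mean log2 ratio of these 5 probes then ran from 1.20 for Klrk1 to 3.33 for Klrc1 A_52_P390127 with the processed signals. The dim probes of Klrg1 (from 0.16 to 0.56), Tyrobp (from 0.05 to 0.20) and Klre1 A_51_P383544 (from 0.01 to 0.18) also moved up, below 2-fold. The ratios of the brighter probes of Hcst (0.47 to 0.51), Klrd1 (0.03 to 0.05) and Fcer1g A_51_P405476 (0.01 to 0.07) moved little over 11 settings that use both arrays. No mean of the 13 probes changed its sign in any of them.

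**Figure D4:**
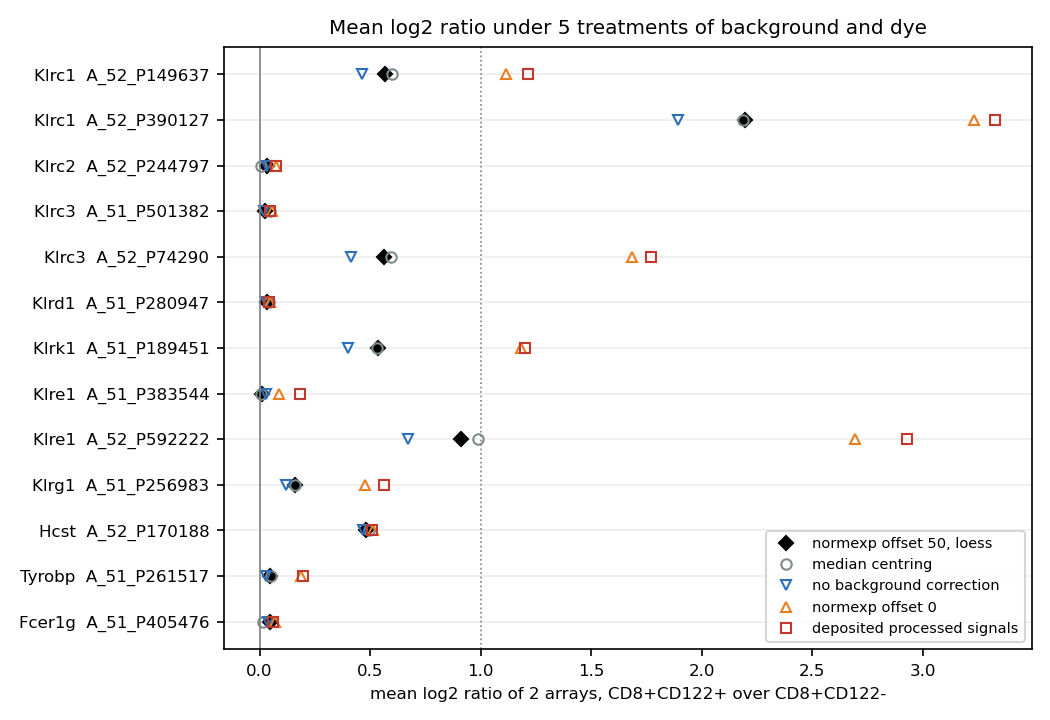
Mean log2 ratio of 2 arrays for the 13 tested probes under 5 treatments of background and dye, with the dotted line at 2-fold. The probes of Klrc1, Klrc3 A_52_P74290, Klrk1, Klrg1 and Klre1 A_52_P592222 move to the right without an offset (Klrc1 A_52_P390127 from 2.20 to 3.33), and those of Klrd1, Hcst and Fcer1g stay in place.

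Ligands of these receptors were read from the same cells, on the brightest tested probe of each gene. H2-T23, which encodes Qa-1, was well above background throughout, with signals of 15703 in CD8+CD122+ and 13402 in CD8+CD122- cells on array 1 and of 13107 and 25477 on array 2, and a log2 ratio of -0.39 ± 0.21, below 0 on both arrays. Cdh1, which encodes E-cadherin, a ligand of KLRG1, gave 116 and 94.0 on array 1, with 150 and 98.0 on array 2, a log2 ratio of 0.72 ± 0.24, and its CD8+CD122- spot was not well above background on array 1. With the processed signals Cdh1 was at 2.01 ± 0.37 and passed 2-fold on both arrays, the 1 ligand gene that did. The NKG2D ligand genes with a tested probe were near 0, at -0.01 ± 0.02 for H60c, 0.06 ± 0.11 for Ulbp1 and 0.01 ± 0.08 for Raet1a, the last named to complete the group. Of 13 ligand genes listed, 8 were on the array and 6 tested. Of these 0 were 2-fold apart on both arrays in either direction, 0 passed limma, and the median log2 ratio was 0.01, as it was over all 21959 genes.

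Kinases, phosphatases and other partners of the adaptors showed no common direction. Of 23 listed genes 22 were tested, 0 passed limma and 0 reached 2-fold on both arrays. Of the 22, 5 were above 0 on both, 8 below 0 on both and 9 of opposite signs, with a median log2 ratio of 0.00. Among all tested probes 27.8% were above 0 on both arrays and 25.6% below, so these counts lie near the background. The largest differences were -0.54 ± 0.18 for Cd247, the zeta chain of the T cell receptor complex, -0.47 ± 0.17 for the scaffold gene Lat, 0.41 ± 0.29 for Pik3r1, the regulatory subunit of PI3 kinase, and 0.39 ± 0.45 for the kinase gene Fyn.

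Other lectin-like receptor genes of the same gene complex were set beside the NKG2 cluster. Of 15 listed names 11 were on the array and 7 tested, of which 0 passed limma and 0 were 2-fold apart on both arrays, with a median of 0.03. Cd69, an early activation antigen, gave signals of 2025 and 921 on array 1 and of 1174 and 869 on array 2, a log2 ratio of 0.87 ± 0.28. Clec2d had opposite signs on the arrays (0.60 and -1.23), and Klrb1c, which encodes NK1.1, was at 0.10 ± 0.05.

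Markers of NK cells that are not among the 10 genes were recorded beside them. Of 16 listed genes 13 were tested and 0 passed limma. At least 2-fold on both arrays, 2 were higher, against 0.31% of all genes, and 0 lower, against 0.105%. Above 0 on both arrays were 9, 4 had opposite signs and 0 were below 0 on both, and the median log2 ratio was 0.13. Among all tested probes 27.8% were above 0 on both arrays and 25.6% below. The list was chosen with earlier results of these data known. With the processed signals the median was 0.31. Then 4 of the 13 genes, each read on its brightest tested probe, were 2-fold higher on both arrays, namely Xcl1, Eomes, Gzma and Il18rap. The share beside it, 0.646%, is of all probes and not of genes. Il18rap and Fcgr3 were tested only through CD8+CD122+, the population in which they are higher. The counts of these markers are therefore no support by themselves. The summed raw signal of all 13 tested markers was 10699 and 8555 in CD8+CD122+ and 5040 and 9385 in CD8+CD122- cells on arrays 1 and 2. Most of each sum came from Nkg7 and Txk, and it precedes the dye normalisation. In CD8+CD122+ cells Nkg7 gave 6401 and 3298, and Txk 1683 and 3243. In CD8+CD122- cells these were 2667 and 3741, and 854 and 3898. The sum therefore says little about the other markers. The higher genes were the chemokine gene Xcl1 (1.72 ± 0.24) and Eomes (1.33 ± 0.43), a transcription factor gene of NK cells and memory CD8 T cells. Gzma, the granzyme A gene, followed at 1.32 ± 0.47 and the granule gene Nkg7 at 0.57 ± 0.11. Il18rap, which encodes a chain of the IL-18 receptor, is named here after its values were seen. It was not well above background in CD8+CD122- cells on either array. With the limit used for Klre1, CD8+CD122+ was 1.44-fold higher as a mean over both arrays, which is no minimum either. Itga2 was not well above background on array 1. Several of these genes are also expressed by CD8 T cells, and the part of NK cells in the values of the receptors was not tested. Of 8 tested myeloid markers 0 were 2-fold apart, with a median of 0.04, and the largest was Lyz2 at 0.55 ± 0.31. Of 9 B cell markers 0 were 2-fold apart, with a median of 0.06. Of 3 tested CD4 T cell markers 0 were 2-fold apart, and Cd4 was at -0.02 ± 0.14.

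The genes whose pair of log2 ratios lay nearest to that of Klrc1 A_52_P390127, by Euclidean distance over the 2 arrays, were Wdr95 (distance 0.21; 2.15 and 2.53), the phosphoprotein gene Plek (0.21; 2.03 and 2.19), Crybg1 (0.23; 1.87 and 2.20), the adhesion receptor gene Cd44 (0.23; 2.08 and 2.19 on this probe) and Ahnak (0.32; 2.24 and 2.59). This likeness covers 2 arrays only and describes these values.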

How the data were processed

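Spot and background intensity values, per the file headers, are scanner pixel means and medians on a linear scale, made with Agilent Feature Extraction, version A.7.5.1 (array 1) and 8.1.1.1 (array 2). The processed signals in the deposited files had their background subtracted and dyes normalised by that software, and their log10 ratio is Cy5 over Cy3. The deposited value table equals that log10 ratio within 1e-05, signed as CD8+CD122- over CD8+CD122+, the opposite of the direction used here, with a median of 0 on both arrays; whether it was centred is unknown. Flags per spot come from the deposited files as well. The sources give no probe sequences or genome build, so probes have no coordinates here.

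Mean signals were corrected with normexp (offset 50) and loess-normalised in limma 3.58.1 (R 4.3.3), where control spots had weight 0. Outlier spots were dropped (0 among the 17 probes) and spots of a probe averaged. Ratios of all 30794 probes were fitted with limma (1 coefficient, 1 residual degree of freedom, two-sided, Benjamini-Hochberg over all probes, threshold 0.05). An exact sign-flip test of 2 arrays cannot go below p = 0.5 and was not used. A gene's value in a list is that of its brightest tested probe. Probes outside the 10 symbols were named through RefSeq by accession (21848 of 41174), symbol (5774) or synonym (4394), and 9158 kept the file's name. Named genes were all probes of the 10 symbols, Il2rb, Cd8a, Cd8b1, up to 4 per list (past 2-fold, then largest difference) plus H2-T23 and Cdh1, and the 5 nearest to Klrc1. Of the CD8 T cell markers, 9 were tested, 0 were 2-fold apart and the median was -0.05. Members and lists were chosen with earlier results of these data known. Motifs were chosen after the values were seen. The steps were tested on simulated data. Alternatives were other background, normalisation, filter and flag settings and single arrays.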

Additional observations from a re-analysis of the deposited data

How the results depend on the processing

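Over 11 settings with both arrays (10 for probes that the stricter filter left out) all 13 tested probes kept a mean log2 ratio above 0 and limma called 0 of them. Counts at least 2-fold apart moved. With normexp offset 0, 5 probes of the 10 genes and 3 genes by their brightest probe were higher, as with the deposited processed signals and the deposited value table (5 and 3), against 1 and 1. Over all probes the higher count of 78 became 182 with offset 0 and 199 with the processed signals or the value table, and the lower count of 25 became 73, 85 and 85, and 16 with median centring. On 1 array alone, which gives values with no test, the higher count was 109 to 336 and the lower count 42 to 219; 1 to 2 probes of the 10 genes and 1 to 2 genes were higher, Klre1 being the second without array 2, and 0 lower. List medians moved to 0.058 (ligands), to 0.15 (other lectin-like receptors) and from 0.13 to 0.31 (NK cell markers) with the processed signals, and to 0.063 (other lectin-like receptors) and -0.012 (adaptor partners) with median centring. The causes were not tested. Each ratio pairs the populations within an array, and the labels give no further number by which to pair samples. Spots close to the background, among them those of Klrg1, Tyrobp and most Klrc probes, limit what could be measured.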
